A study of Mus musculus with 12 samples.

Results

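Solute carriers are membrane proteins that move ions, sugars, amino acids, nucleotides, vitamins and metals across cell and organelle membranes, and their mouse gene symbols start with Slc. Every row of the deposited count table whose Ensembl ID maps to a symbol of Slc followed by a digit was taken when it held at least 100 counts over the 12 columns. This gave 90 genes of the 14675 in the table, 19 of the mitochondrial carrier family Slc25 and 71 of other families. A further 107 Slc rows held fewer than 100 counts and were left out. The 90 genes held between 100 and 10587 counts over the 12 columns, with a median of 242.5. Among those just inside the limit were Slc25a44 with 100 counts and Slc35b4 with 104, and among those just outside were Slc9a9 and Slc41a3 with 99 each. Of the 90 symbols, 3 are named after a carrier without being one, namely Slc7a6os and the scaffold proteins Slc9a3r1 and Slc9a3r2.

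The RNA came from dorsal root ganglion (DRG) neurons of adult mice with the genotype RPL22HA+/+;Advillin-Cre+, in which Advillin-Cre, active in sensory neurons, switches on an HA-tagged ribosomal protein RPL22. An anti-HA pull-down (IP) therefore holds RNA bound to tagged ribosomes, whereas the input is total RNA and also holds RNA of cells without the tag. The 4 groups, of 3 columns each, were IP after AAV-shGpr151 and AAV-e5'UTR (written "with e5UTR" from here on), IP after AAV-shGpr151 alone, input with e5UTR, and input after AAV-shGpr151 alone. Every group thus carried the hairpin against Gpr151, and a control hairpin was not analysed here. The identity of the e5'UTR insert is not stated in the labels. The series text speaks of neuron cultures from mice whose sciatic nerve had been injured beforehand (preconditioning), while the protocol describes freshly collected DRGs, so the material sequenced is uncertain on this point. In bulk RNA, fewer cells of a type and less RNA per cell cannot be told apart.

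Carriers of the Slc25 family sit mostly in the inner mitochondrial membrane and exchange ADP for ATP, import phosphate and pass metabolites and cofactors in and out of the matrix. Neurons depend on this exchange for ATP in long axons. The other families sit in the plasma membrane or in organelles such as lysosomes, Golgi and synaptic vesicles. In sensory neurons they include the vesicular glutamate transporters that load the transmitter and the chloride cotransporters that set the response to GABA.

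The columns of a group had nearly equal totals, between 1381220 and 1517685 counts in IP and between 975403 and 985277 in input. For the median gene their counts varied 1.08 to 1.12 times as much as counting noise predicts. The 3 columns of a group were therefore counted as 1 sample, called a pool, with 2 IP pools and 2 input pools in all. A pair of values for the IP pools or the input pools is that of the pool with e5UTR and that of the pool with shGpr151 alone. Gpr151 itself had 128 counts (20.9 CPM, counts scaled to a common library size) in IP with e5UTR, 108 (19.2 CPM) in IP shGpr151, 29 (13.5 CPM) in input with e5UTR and 35 (16.3 CPM) in input shGpr151. With the hairpin in every group these values cannot check the knockdown. The 7 sensory neuron markers summed to 8443 and 8028 CPM in the IP pools, against 3841 and 3889 CPM in the input pools. Markers of other cells stood the other way when summed. The 7 Schwann cell markers had 483 and 510 CPM in IP, against 1514 and 1523 CPM in input. The 5 red blood cell markers had 3.10 and 2.31 CPM in IP, against 2295 and 2345 CPM in input. The red cell markers Hbb-bt and Alas2 had 0 counts in both IP pools. The 5 satellite glia markers summed to 246 and 259 CPM in IP, against 1089 and 1030 CPM in input, but 1 of them, Glul, was higher in IP, with 102 and 121 CPM against 32.1 and 24.2 CPM in input. Macrophage markers summed to 25.6 and 16.9 CPM in IP, against 92.6 and 97.2 CPM in input. Fibroblast markers summed to 87.9 and 69.4 CPM in IP, against 312 and 314 CPM in input. In the test of IP against input used below, the Schwann cell markers Pmp22 and Cnp did not pass. Nor did Cdh19 (satellite glia), Cd68 (macrophage) or Col3a1 (fibroblast). Pmp22 had 190 and 208 CPM in IP, against 207 and 204 CPM in input. The part of these other cells in the differences between IP and input below was not tested.

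The first question is which carriers are richer in the ribosome-bound RNA of the neurons than in total RNA. Of the 90 genes, 41 were higher and 26 lower in IP than in input, and 23 did not pass the test (edgeR's quasi-likelihood test on the 4 pools, Benjamini-Hochberg adjusted p under 0.05). Over all 11343 genes tested, 60.2% passed, 28.0% higher and 32.2% lower in IP. The median log2 ratio of IP over input was 0.46 for the 90 carriers and 0.05 for all genes tested. Of the 67 carriers that passed, 53 differed by at least 2-fold, 32 of them higher and 21 lower. Both IP pools lay on the same side of both input pools for 75 of the 90 carriers, as they did for 81.1% of all genes. Each fraction holds 2 pools that also differ in treatment, so the p-values reflect no more than the spread among these 4 pools.

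The scale matters for this comparison, because TMM scaling and scaling by library total differ by 0.89 in log2 for the median gene. Scaled by library total, 61 carriers were higher and 18 lower in IP, beside 56.7% higher and 20.8% lower of all genes (77.6% either way). Slc25a12, Slc25a5 and Slc35b1, lower in IP under TMM scaling, had log2 ratios of 0.00, 0.17 and 0.43 when scaled by library total. Scaled that way, Slc35b1 passed as higher in IP (edgeR adjusted p = 0.044), while Slc25a12 and Slc25a5 did not pass. The limit of 100 counts also matters. The IP pools are deeper (4549204 and 4145071 counts) than the input pools (2928926 and 2954427), and the part of depth in this was not tested. With a limit of 300 counts, 9 carriers outside Slc25 were higher and 13 lower in IP, with a median log2 ratio of -0.26. With the same limit, 5 Slc25 genes were higher and 4 lower, with a median of 0.44. The shares of all genes at that limit were not computed.

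**Figure D1:**
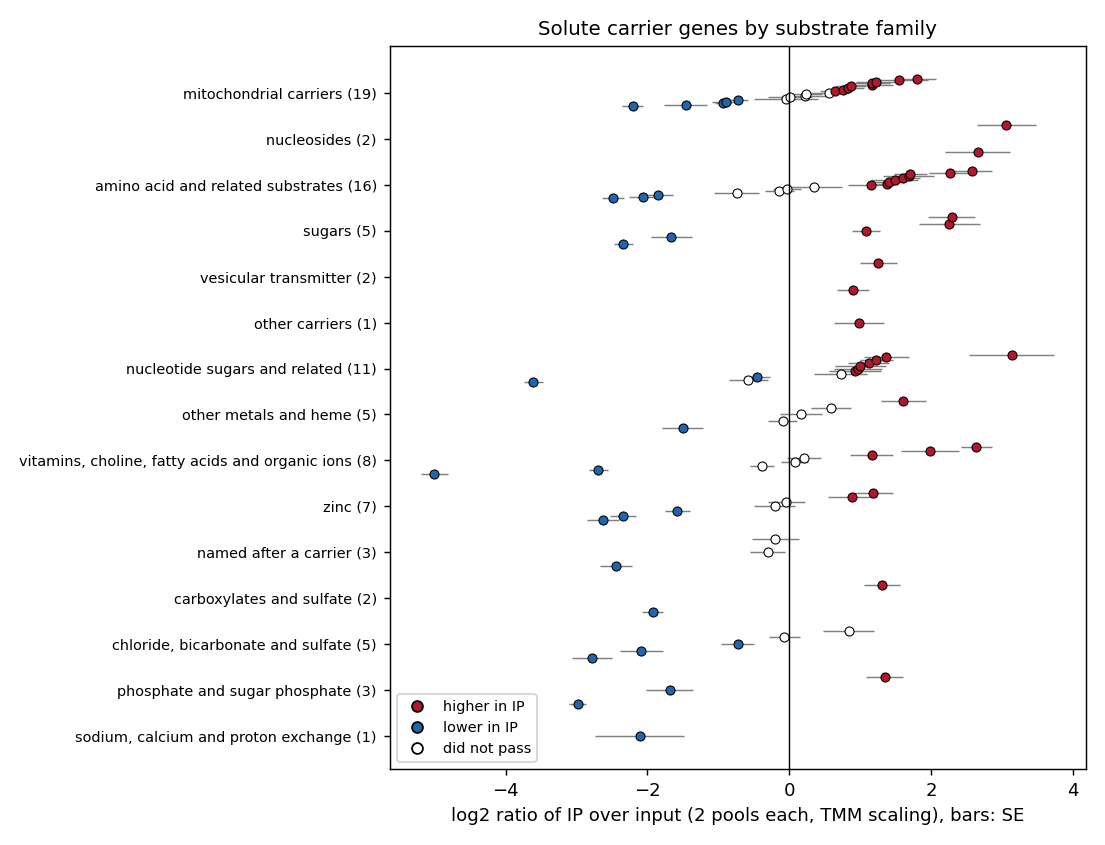
Each point is a solute carrier gene, placed by its log2 ratio of IP over input (TMM scaling, 2 pools each) with bars of 1 SE, in rows by substrate family with the number of genes in brackets. Red points were higher in IP, blue points lower, and white points did not pass the test; the lowest point is Slc52a2 at -5.00 and the highest is Slc35g2 at 3.14.

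Of the 19 Slc25 genes, 9 were higher in IP, 5 lower and 5 did not pass, with a median log2 ratio of 0.57. Of the 71 other genes, 32 were higher, 21 lower and 18 did not pass, with a median of 0.35. Without the 3 that are not carriers the median of the others was 0.66, above that of Slc25. With a limit of 50 counts the medians were 0.22 for Slc25 and 0.58 for the others, so the order of the sets is not stable. DESeq2 called 5 Slc25 genes higher and 5 lower. Both sets had values on both sides of input, and no test of the difference between the sets was made. The Slc25 median was 0.58 with e5UTR and 0.68 in shGpr151 alone. For the other carriers it was 0.38 with e5UTR and 0.46 in shGpr151 alone. The ratio had the same sign in both treatments for 15 of 19 Slc25 genes and for 60 of 71 other carriers. Scaled by library total, the Slc25 set had 13 genes higher and 1 lower in IP, with a median of 1.46.

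Slc25a4, an ADP/ATP carrier and the mitochondrial carrier with the most counts, had 1734 counts (283 CPM) in IP with e5UTR and 1439 (255 CPM) in IP shGpr151, against 1146 (533 CPM) in input with e5UTR and 1061 (493 CPM) in input shGpr151. Both IP pools were lower than both input pools, with a log2 ratio of -0.93 ± 0.11 (SE, edgeR adjusted p = 2.2e-05). Scaled by library total the ratio was -0.04 and did not pass. Slc25a5, the other ADP/ATP carrier measured, had 504 and 386 counts (82.2 and 68.5 CPM) in the IP pools with e5UTR and shGpr151, against 258 and 278 counts (120 and 129 CPM) in the input pools in the same order. It was also lower in IP, at -0.73 ± 0.14 (edgeR adjusted p = 0.00071). Slc25a3, which brings phosphate into the matrix for ATP synthesis, stood the other way. It had 1351 and 1085 counts (220 and 193 CPM) in the IP pools, against 245 and 279 counts (114 and 130 CPM) in the input pools. All 6 IP columns were above all 6 input columns, and the level was 1.69-fold higher in IP (log2 0.76 ± 0.13, edgeR adjusted p = 0.00035). The 3 genes for ATP export and phosphate import thus differed in opposite directions under TMM scaling.

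Carriers of the malate-aspartate shuttle were split as well. Slc25a11, the oxoglutarate-malate carrier, had 22.3 and 21.6 CPM in the IP pools, against 7.91 and 11.6 CPM in the input pools (log2 1.17 ± 0.25, edgeR adjusted p = 0.0016). Its gene overlaps Rnf167 in the RefSeq annotation, and the sources used here do not state how reads in such overlaps were assigned. Slc25a12, an aspartate-glutamate carrier, had 18.7 and 18.5 CPM in IP, against 29.8 and 39.0 CPM in input (log2 -0.89 ± 0.20, edgeR adjusted p = 0.0022). It no longer passed without the IP e5UTR pool (-0.79) or the IP shGpr151 pool (-0.85). Both IP pools lay below both input pools for Slc25a12 and above them for Slc25a11. The gene of Slc25a12 overlaps a pseudogene, Gm13641. Slc25a22, a glutamate carrier, had 14.2 and 11.9 CPM in IP, against 5.12 and 6.51 CPM in input (log2 1.16 ± 0.30, edgeR adjusted p = 0.0055), but did not pass with DESeq2 (1.15). Slc25a1, which exports citrate, had 27.9 and 29.5 CPM in IP, against 18.6 and 13.5 CPM in input (log2 0.84 ± 0.22, edgeR adjusted p = 0.0055), and did not pass without the IP shGpr151 pool (0.82) or the input shGpr151 pool (0.63).

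The strongest rise among the mitochondrial carriers was that of Slc25a38, which carries glycine for heme synthesis. It had 137 and 113 counts (22.3 and 20.1 CPM) in the IP pools, against 14 and 12 counts (6.51 and 5.58 CPM) in the input pools, a 3.50-fold difference (log2 1.81 ± 0.27, edgeR adjusted p = 0.0001). Each of the 6 IP columns held 36 to 56 counts, and the input columns held 0 to 7. Slc25a39, a carrier of glutathione, was higher in IP by less, with 24.9 and 25.9 CPM against 17.2 and 15.3 CPM in input (log2 0.64 ± 0.21, edgeR adjusted p = 0.018). Its call ended with DESeq2 (0.63) and without the IP shGpr151 pool (0.64), the input e5UTR pool (0.74) or the input shGpr151 pool (0.57). Slc25a46, an outer membrane member that acts in mitochondrial fusion and fission, had 25.8 and 24.5 CPM in IP, against 14.9 and 12.6 CPM in input (log2 0.87 ± 0.22, edgeR adjusted p = 0.0042), but did not pass with DESeq2 (0.86).

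The 2 calcium-regulated ATP-magnesium/phosphate carriers measured went opposite ways. Slc25a23 had 148 and 152 counts (24.1 and 27.0 CPM) in the IP pools, against 235 and 273 counts (109 and 127 CPM) in the input pools. It had the largest fall of the Slc25 genes (log2 -2.21 ± 0.15, edgeR adjusted p = 1.1e-07). Slc25a25, chosen after its values were seen, had 15.2 and 15.3 CPM in IP, against 5.58 and 7.44 CPM in input (log2 1.22 ± 0.28, edgeR adjusted p = 0.0025), and overlaps Naif1. The 2 other Slc25 genes that passed, also chosen after their values were seen, were Slc25a44, a branched-chain amino acid carrier, at log2 1.55 ± 0.41 (adjusted p = 0.006) and Slc25a43 at -1.46 ± 0.31 (adjusted p = 0.0014). With scaling by library total, Slc25a43 did not pass (-0.57, edgeR adjusted p = 0.105). Among the 5 that did not pass were Slc25a14, the carnitine-acylcarnitine carrier Slc25a20, the NAD carrier Slc25a51 and the peroxisomal cofactor carrier Slc25a17. The log2 ratios of the 5 ran from -0.05 ± 0.45 in Slc25a14 to 0.57 ± 0.27 in Slc25a17. Of a list of 16 core mitochondrial carriers, 10 were among the 90 genes, and of these 6 were higher and 3 lower in IP under TMM scaling, and 7 higher and 0 lower scaled by library total.

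**Figure D2:**
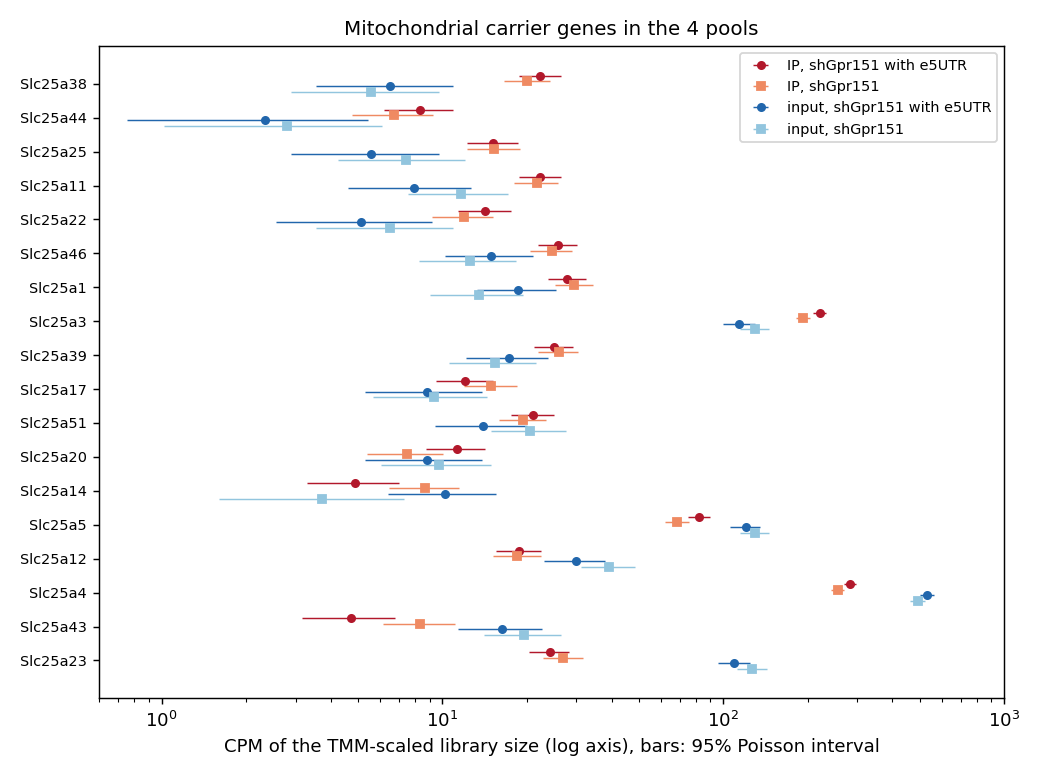
Levels of 18 mitochondrial carrier genes in the 4 pools, in CPM on a log axis, with exact 95% Poisson intervals that cover counting error only, ordered by the log2 ratio of IP over input. The IP points of Slc25a4, Slc25a3 and Slc25a5 stand to the right of the IP points of the other 15 genes. The IP points of Slc25a38 (22.3 and 20.1 CPM) lie to the right of its input points while those of Slc25a23 (24.1 and 27.0 CPM) lie to the left.

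Amino acid carriers were the largest of the other groups, with 16 genes of which 9 were higher in IP, 3 lower and 4 did not pass (median log2 1.26). Slc3a2, the heavy chain that brings several amino acid exchangers to the plasma membrane, had 389 and 392 counts (63.4 and 69.6 CPM) in the IP pools, against 53 and 57 counts (24.7 and 26.5 CPM) in the input pools. The difference was 2.60-fold (log2 1.38 ± 0.16, edgeR adjusted p = 1.6e-05). Its partner Slc7a5, which takes up large neutral amino acids such as leucine, had 149 and 148 counts (24.3 and 26.3 CPM) in the IP pools and 9 counts in each input pool (4.19 and 4.18 CPM). Each IP column held 43 to 57 counts and each input column 1 to 6. The difference (log2 2.58 ± 0.28, edgeR adjusted p = 6.8e-06) was larger than that of Slc3a2.

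Slc7a1, which takes up arginine and lysine, had 37.7 and 32.3 CPM in the IP pools, against 8.84 and 12.6 CPM in the input pools (log2 1.71 ± 0.23, edgeR adjusted p = 5.8e-05). Slc1a4, an exchanger of serine, alanine and threonine, had 14.2 and 13.3 CPM in IP, against 3.26 and 6.51 CPM in input (log2 1.49 ± 0.33, edgeR adjusted p = 0.0022). Slc38a2, a sodium-coupled glutamine transporter, did not pass, with 27.9 and 34.6 CPM in IP against 27.5 and 36.3 CPM in input (log2 -0.03 ± 0.20, adjusted p = 0.91). These 5 are the detected genes of a list of 10 amino acid carriers linked in mammals to the stress-response factor ATF4. Under TMM scaling 4 of the 5 were higher in IP, beside 28.0% of all genes tested. Scaled by library total all 5 were higher, beside 56.7% of all genes, and Slc38a2 then passed (log2 0.86, edgeR adjusted p = 0.0018). Neither share of all genes is a matched background. Detection of the 5 required the count limit for carriers, summed over IP and input, while all genes met a looser filter. With deeper IP pools, a gene higher in IP reaches that limit more easily. How far this raised the share of the 5 was not tested. Slc36a1, an exporter of small amino acids from lysosomes, had 25.1 and 23.1 CPM in IP, against 7.91 and 7.90 CPM in input (log2 1.60 ± 0.24, edgeR adjusted p = 0.00012). Slc38a10 had 34.9 and 31.8 CPM in IP, against 12.6 CPM in each input pool (log2 1.41 ± 0.21, edgeR adjusted p = 0.00011).

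The 3 amino acid family genes that were lower in IP were Slc7a14, Slc6a15 and Slc1a7. Slc7a14, a lysosomal relative of the cationic amino acid carriers, had 150 and 175 counts (24.5 and 31.1 CPM) in the IP pools, against 342 and 325 counts (159 and 151 CPM) in the input pools. Both IP pools were far below both input pools (log2 -2.48 ± 0.15, edgeR adjusted p = 4.1e-08). Slc6a15 and Slc1a7, named after their values were seen, had log2 ratios of -2.06 ± 0.20 and -1.85 ± 0.21.

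Both vesicular glutamate transporters detected were higher in IP, out of a list of 7 vesicular transmitter transporters. Slc17a6, the form that most sensory neurons use, had 198 and 150 counts (32.3 and 26.6 CPM) in the IP pools, against 40 and 28 counts (18.6 and 13.0 CPM) in the input pools (log2 0.90 ± 0.23, edgeR adjusted p = 0.0052). Slc17a7 had 105 and 117 counts (17.1 and 20.8 CPM) in the IP pools and 17 counts in each input pool (7.91 and 7.90 CPM), at log2 1.25 ± 0.26 (edgeR adjusted p = 0.0014). For both genes the IP pools lay above the input pools, but Slc17a6 did not pass without the IP e5UTR pool (0.86) or the input shGpr151 pool (0.67). Of the 7 sensory neuron markers, 6 were higher in IP, with log2 ratios of up to 2.43, and Snap25 was lower, at -1.16 ± 0.13.

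Of the fuel carriers, Slc2a1, a widely expressed glucose transporter, had 34.1 and 35.1 CPM in the IP pools, against 14.9 and 17.7 CPM in the input pools (log2 1.09 ± 0.20, edgeR adjusted p = 0.00054). It is also the only gene of a list of 10 carriers of glia and other non-neuronal cells that reached 100 counts. Slc2a3, the glucose transporter best known from neurons, had 217 and 207 counts (35.4 and 36.7 CPM) in the IP pools, against 405 and 380 counts (188 and 177 CPM) in the input pools. The 2 glucose transporters thus differed in opposite directions, Slc2a3 being lower in IP at log2 -2.34 ± 0.13 (edgeR adjusted p = 2e-08). The Slc2a3 gene overlaps a pseudogene, Gm4482, in the annotation. Slc16a1, which carries lactate and pyruvate, had 17.9 CPM in each IP pool, against 6.98 and 7.44 CPM in the input pools (log2 1.31 ± 0.26, edgeR adjusted p = 0.00089).

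Slc27a4, a fatty acid transport protein and acyl-CoA synthetase, had the highest ratio among carriers with at least 300 counts. It had 288 and 260 counts (47.0 and 46.1 CPM) in the IP pools, against 15 and 17 counts (6.98 and 7.90 CPM) in the input pools. Every IP column held 79 to 100 counts and every input column 3 to 7. The difference was 6.23-fold (log2 2.64 ± 0.22, edgeR adjusted p = 6.9e-07). Carriers with fewer counts had ratios as high, and the following were named after their values were seen. The plasma membrane monoamine transporter Slc29a4 had 72 and 68 counts in the IP pools and 3 counts in each input pool (log2 3.06 ± 0.41, edgeR adjusted p = 4.7e-05). Slc35g2 had 60 and 63 counts in the IP pools and 5 and 0 counts in the input pools with e5UTR and shGpr151. The 0 allows up to 1.39 CPM in that pool, and the gene overlaps Gm46139.

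Among the 11 Slc35 genes, most of which carry nucleotide sugars into the Golgi and endoplasmic reticulum, 7 were higher in IP, 2 lower and 2 did not pass. Slc35e4, an orphan member, had 27.7 and 23.4 CPM in the IP pools, against 10.2 and 11.6 CPM in the input pools (log2 1.23 ± 0.23, edgeR adjusted p = 0.00071). Slc35d2, which carries UDP-sugars, was lower in IP, with 290 and 229 counts (47.3 and 40.6 CPM) in the IP pools against 1171 and 1141 counts (545 and 530 CPM) in the input pools. The IP pools thus held fewer Slc35d2 counts at greater depth (log2 -3.61 ± 0.13, edgeR adjusted p = 1.5e-09).

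The falls of 3 other carriers with many counts were also large. Slc37a1, which exchanges glucose 6-phosphate for phosphate and had the most counts of the 90 genes, had 1291 and 1419 counts (210 and 252 CPM) in the IP pools, against 3980 and 3897 counts (1852 and 1812 CPM) in the input pools. Its log2 ratio was -2.99 ± 0.12 (edgeR adjusted p = 2.2e-09). Slc23a1, a sodium-coupled vitamin C transporter, had 83.3 and 106 CPM in IP, against 608 and 615 CPM in input (log2 -2.69 ± 0.14, edgeR adjusted p = 8.8e-09). Its gene overlaps Paip2 in the annotation, so reads of the 2 genes may not be told apart. Slc52a2, a riboflavin transporter, had 36 and 38 counts (5.87 and 6.74 CPM) in the IP pools, against 386 and 487 counts (180 and 226 CPM) in the input pools. It was 32.1-fold lower in IP (log2 -5.00 ± 0.19, edgeR adjusted p = 1.5e-09), with 9 to 20 counts in each IP column and 110 to 177 in each input column.

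These 4 genes carried most of the summed difference between IP and input outside Slc25. Chosen after their values were seen, as the 4 largest falls among carriers with at least 300 counts, they summed to 347 and 405 CPM in the IP pools, against 3184 and 3183 CPM in the input pools. The other 67 carriers outside Slc25 summed to 1121 and 1134 CPM in the IP pools, against 1392 and 1538 CPM in the input pools. The ratio of IP over input of that sum was 0.805 with e5UTR and 0.737 in shGpr151 alone. The 19 Slc25 genes summed to 852 and 786 CPM in the IP pools, against 1048 and 1067 CPM in the input pools, with ratios of 0.813 and 0.737. Without Slc25a4 the Slc25 sum was 569 and 531 CPM in the IP pools, against 515 and 574 CPM in the input pools. The groups thus overlapped. These sums are under TMM scaling. As a share of the library total, Slc25 was instead higher in IP, at 0.115% and 0.107% against 0.0769% and 0.0777% in input. The other 67 carriers were higher too, at 0.151% and 0.154% against 0.102% and 0.112%. The 4 genes stayed lower in IP, at 0.0468% and 0.0551% against 0.234% and 0.232%. An exact permutation test of 2 pools against 2 cannot go below p = 0.333, so no p is given for these sums.

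**Figure D3:**
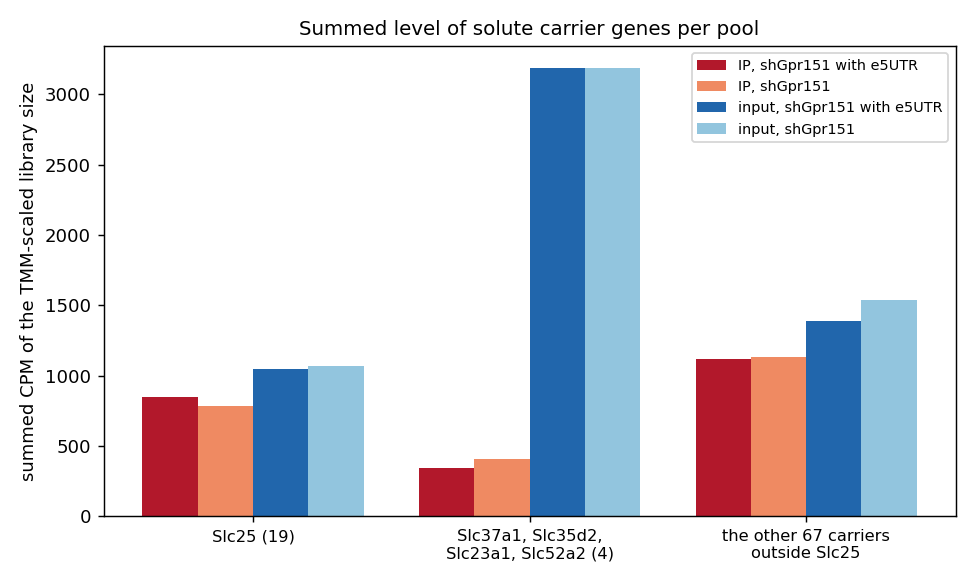
Summed CPM (TMM scaling) of the 19 Slc25 genes, of Slc37a1, Slc35d2, Slc23a1 and Slc52a2, and of the other 67 carriers. Each pool has a bar, and the axis starts at 0. The 4 named genes reach 347 and 405 CPM in the IP pools and 3184 and 3183 CPM in the input pools, while the bars of the other sets differ less.

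Zinc carriers were split, with 2 of 7 higher in IP, 3 lower and 2 that did not pass. The zinc importer Slc39a10 had 7.66 and 10.3 CPM in the IP pools, against 47.9 and 62.8 CPM in the input pools (log2 -2.63 ± 0.22, edgeR adjusted p = 8.2e-07). Slc30a9, a zinc transporter of mitochondria, had 18.9 and 13.8 CPM in IP, against 77.7 and 90.2 CPM in input (log2 -2.35 ± 0.18, edgeR adjusted p = 4e-07). Slc30a5, which loads zinc into the early secretory pathway, had 21.8 and 31.1 CPM in IP, against 77.2 and 80.4 CPM in input (log2 -1.58 ± 0.18, edgeR adjusted p = 1.2e-05). The 2 that were higher, Slc39a6 and Slc39a9, named after their values were seen, had log2 ratios of 1.19 ± 0.27 and 0.89 ± 0.34. Slc39a9 had 62 and 50 counts in the IP pools and 14 and 8 in the input pools (edgeR adjusted p = 0.042). Its gene overlaps Erh in the annotation.

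Of the 5 carriers of chloride, bicarbonate and sulfate, 3 were lower in IP under TMM scaling and none was higher. Slc12a2, the cotransporter that brings chloride into sensory neurons, had 20 and 21 counts (3.26 and 3.73 CPM) in the IP pools, against 31 and 33 counts (14.4 and 15.3 CPM) in the input pools (log2 -2.08 ± 0.30, edgeR adjusted p = 8e-05). Scaled by library total, 2 of the 5 genes in this family were higher and 2 lower in IP.

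The smaller families are given with examples named after their values were seen. Of 5 carriers of other metals and heme, 1 was higher in IP, 1 lower and 3 did not pass. Slc41a2, a magnesium transporter, had 78 and 65 counts in the IP pools, against 9 and 8 counts in the input pools (log2 1.61 ± 0.32, edgeR adjusted p = 0.001). The copper importer Slc31a1 did not pass (log2 0.16 ± 0.29), while its relative Slc31a2 was lower, with 32 and 39 counts in the IP pools against 44 and 30 counts in the shallower input pools (edgeR adjusted p = 0.00084). Slc31a2 did not pass when scaled by library total (log2 -0.62, edgeR adjusted p = 0.072). The gene of Slc31a1 overlaps Fkbp15 in the annotation. Of 8 carriers of vitamins, choline, fatty acids and organic ions, 3 were higher, 2 lower and 3 did not pass. The folate carrier Slc19a1 had 63 and 57 counts in the IP pools, against 3 and 8 counts in the input pools (log2 1.98 ± 0.41, edgeR adjusted p = 0.0014). Slc20a1, a phosphate importer of the plasma membrane, had 113 and 103 counts in IP, against 14 and 17 counts in input (log2 1.34 ± 0.26, edgeR adjusted p = 0.00079). Slc13a4, a sulfate carrier, had a log2 ratio of -1.93 ± 0.15 (edgeR adjusted p = 3.8e-07). Slc26a2, which also carries sulfate but belongs to another family, had -2.78 ± 0.28 (edgeR adjusted p = 4.5e-06).

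Neighbouring gene groups were read in the same fit, under TMM scaling unless stated. Of 23 genes of the mitochondrial import machinery, whose symbols start with Timm or Tomm, 6 were higher in IP and 7 lower, with a median log2 ratio of 0.04. With scaling by library total, 18 were higher and 2 lower (median 0.93). Of 23 ABC transporters, which pump substrates with ATP, 6 were higher and 8 lower (median -0.11), against 12 higher and 7 lower when scaled by library total. Of 9 ion pump genes tested, 3 were higher and 5 lower, and 4 were higher and 4 lower when scaled by library total. Vdac1, the main channel of the outer mitochondrial membrane, named after its values were seen, had a log2 ratio of 1.18 ± 0.13. Its relative Vdac2 was higher by less, at 0.45 ± 0.14 (edgeR adjusted p = 0.017). Vdac3 did not pass, at -0.33 ± 0.16 (edgeR adjusted p = 0.10).

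The second question is how carrier levels with AAV-e5'UTR compare with those under the hairpin alone. It was read separately in IP and in input, each as 1 pool against 1 pool, so there is no test, and each ratio has an exact 95% interval for counting error only (Clopper-Pearson). Genes with at least 30 counts over both pools were read. In IP all 90 carriers had that many, and 0 of them differed by 2-fold or more, while 3.60% of all genes read did. Their ratios of e5UTR over shGpr151 alone ran from 0.563 to 1.80, with a median of 0.966. In input 64 carriers had that many counts, and 3 differed by 2-fold or more (2 higher and 1 lower), beside 1.86% of all genes read. The input ratios had a median of 0.939.

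The largest difference was in Slc24a2, which exchanges sodium for calcium and potassium at the neuronal plasma membrane. Its deposited columns held 8, 10 and 9 counts in input with e5UTR, against 87, 100 and 97 in input shGpr151. In IP they held 31, 34 and 34 with e5UTR, against 32, 35 and 31 in shGpr151 alone. The input columns thus did not overlap between treatments while the IP columns did. The ratio was 0.0952 in input (95% interval 0.0616 to 0.141) and 0.928 in IP (0.695 to 1.24). Slc24a2 was the only carrier that passed the test of IP against input with overlapping pools, and its log2 ratio of -2.11 ± 0.63 (edgeR adjusted p = 0.012) rested on the input shGpr151 pool. The log2 ratio of IP over input was 0.36 with e5UTR and -2.92 in shGpr151 alone, and without the input shGpr151 pool the fit gave 0.42. It did not pass without either IP pool (-1.94 and -2.14), scaled by library total (-1.21) or with DESeq2 (-2.12). The gene of Slc24a2 overlaps a pseudogene, Gm34039, in the annotation.

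Slc25a14, a mitochondrial uncoupling protein of the nervous system, had 8, 11 and 3 counts in the columns of input with e5UTR, against 3, 3 and 2 in input shGpr151. In IP it had 10, 13 and 7 with e5UTR, against 19, 21 and 9 in shGpr151 alone. The ratio was 2.75 in input (1.18 to 7.15) and 0.563 in IP (0.345 to 0.904). The columns of the 2 treatments overlapped in IP and met at 3 counts in input. Slc6a20b, a carrier of proline and related imino acids, had 11, 6 and 5 counts in input with e5UTR, against 3, 6 and 0 in input shGpr151. Its ratio was 2.45 in input (1.08 to 6.04) and 0.682 in IP (0.455 to 1.01). With at least 100 counts required, only Slc24a2 differed by 2-fold in input.

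**Figure D4:**
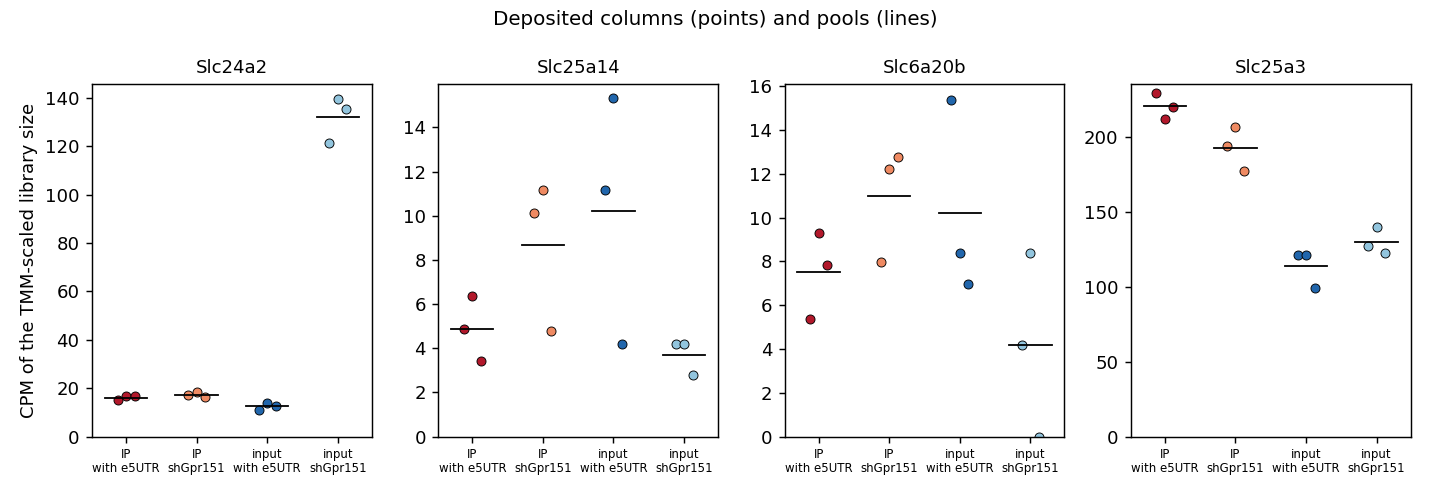
Levels of Slc24a2, Slc25a14, Slc6a20b and Slc25a3 in each of the 12 deposited columns (points) and in each pool (lines), in CPM. The 3 input shGpr151 columns of Slc24a2 stand far above its other 9, while the columns of Slc25a14 and Slc6a20b with e5UTR overlap or meet those of shGpr151 alone in each fraction.

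The interval excluded a ratio of 1 for 15 of the 90 carriers in IP, beside 22.5% of all genes read there, and for 5 of 64 in input, beside 6.23% of all genes. In IP these were 6 of 19 Slc25 genes and 9 of 71 others. The 3 mitochondrial carriers with the most counts were higher with e5UTR in IP by small amounts, with ratios of 1.11 for Slc25a4 (1.03 to 1.19), 1.14 for Slc25a3 (1.06 to 1.24) and 1.20 for Slc25a5 (1.05 to 1.37). For Slc25a3 the IP columns held 468, 433 and 450 counts with e5UTR, against 364, 388 and 333 in shGpr151 alone. The same gene had a ratio of 0.879 in input (0.737 to 1.05), where the columns held 87, 87 and 71 counts with e5UTR and 91, 100 and 88 in shGpr151 alone. Of the other carriers with many counts, Slc37a1 had an IP ratio of 0.836 and Slc23a1 of 0.785, and both were close to 1 in input, at 1.02 and 0.988. Slc50a1, a sugar carrier of the SWEET family named after its values were seen, had the highest IP ratio, 1.80 (1.13 to 2.95), on 55 counts with e5UTR and 28 in shGpr151 alone.

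Of the amino acid carriers that differed between IP and input, the next 4 were higher in IP. Their e5UTR ratios in IP were near 1, and none of these 4 intervals excluded 1. The IP ratio was 0.912 for Slc3a2, 0.925 for Slc7a5, 1.17 for Slc7a1 and 1.07 for Slc1a4. Slc7a14, which was lower in IP than in input, had an IP ratio of 0.788 (0.629 to 0.985), with 150 counts with e5UTR and 175 in shGpr151 alone. Slc38a2 had an IP ratio of 0.806 (0.652 to 0.994), with 171 counts with e5UTR and 195 in shGpr151 alone. Slc27a4 had 288 counts with e5UTR and 260 in shGpr151 alone in IP, a ratio of 1.02.

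**Figure D5:**
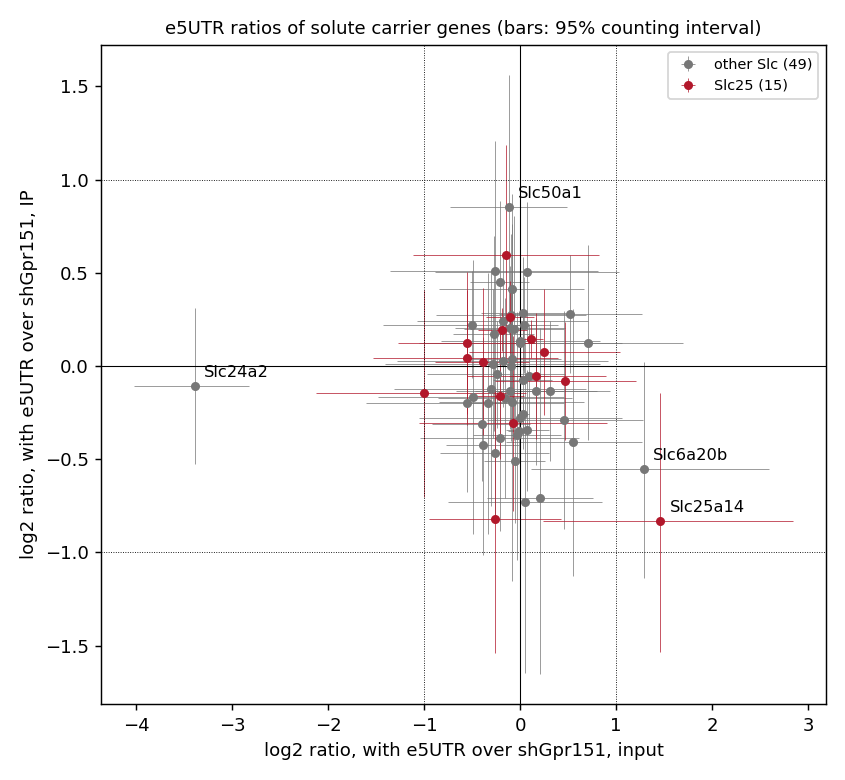
Log2 ratio of e5UTR over shGpr151 alone in IP (vertical axis) against the same in input (horizontal axis) for the 64 carriers with at least 30 counts in both fractions, 15 of them Slc25 genes, with 95% counting intervals as bars and dotted lines at 2-fold. Slc24a2, Slc25a14 and Slc6a20b lie outside the dotted lines of the input axis, and no carrier lies outside those of the IP axis.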

How the data were processed

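Input and IP RNA were sequenced as Nanopore cDNA-PCR libraries, per the labels' protocols. The deposited values are the authors' estimated counts, all whole numbers, for 14675 Ensembl gene IDs in 12 columns. The submitters' processing notes name minimap2, Salmon, GRCm39 and mm39. Versions, annotation, counting settings, use of strand and the treatment of reads shared between genes are not stated in those sources. A symbol was found for 13191 IDs (89.9%), and 11.0% of all counts fell on the 1484 unnamed IDs, which may hold further carriers. RefSeq's GRCm38.p6 table was used only for overlapping gene names.

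The 3 columns of each group were compared by a chi-square test per gene with at least 30 counts, of which 7.24% to 7.72% had p under 0.05, and were summed to 1 pool. The labels do not say that columns came from separate animals. IP was tested against input on the 4 pools with edgeR 4.0.16 in R 4.3.3 (quasi-likelihood test, TMM scaling, filterByExpr with minimum count 10, Benjamini-Hochberg over 11343 genes). TMM factors ran from 0.731 to 1.37, and the biological coefficient of variation was 10.4%. All 90 carriers passed the filter. CPM is relative to the TMM-scaled library size and is not divided by gene length, so levels are compared within a gene. In simulated data, 90% of 4-fold and 40% of 2-fold rises were recovered, and 94% and 48% of such falls. The simulation changed 50 genes at each fold and direction among 11343, with the same dispersion for every gene. In the real data 60.2% of genes passed, so these shares do not give the recovery of the real test. Intervals are exact at 95%, a count of 0 allows up to 3 counts, and both cover counting error only, since amplified reads are not independent molecules.

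Named with values were the 8 largest differences in each direction within Slc25 and within the others (past 0.05, at least 300 counts), the 6 and 8 genes with most counts, genes past 2-fold with e5UTR whose interval excludes 1, and detected genes of 6 role lists. The carriers and all lists were chosen with earlier results of these data known. The alternatives were scaling by library total or size factors, no filter or a stricter one, DESeq2 1.42.0, columns as samples, treatment as covariate, other count limits and leaving out columns or pools. The values of a few such genes are not reported here.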

Additional observations from a re-analysis of the deposited data

Results flagged for a closer look

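In 2 carriers the columns went opposite ways in a pair of groups. For Slc24a2, every IP column lay above every input column with e5UTR and below every input column in shGpr151 alone. Its ratio of e5UTR over shGpr151 alone was 0.928 in IP and 0.0952 in input, so that the first was 9.75 times as large. For Slc25a3, every e5UTR column lay above every column of shGpr151 alone in IP and below every one in input. Its ratio was 1.14 in IP and 0.879 in input, so that the first was 1.30 times as large. Neither difference was tested, because each group is 1 pool and its columns were not counted as separate samples. How many of all genes have columns separated in this way was not counted.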

How the results depend on the processing

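Scaled by library total, 1 Slc25 gene was lower in IP, the medians were 1.46 (Slc25) and 1.24 (other carriers), and 6433 genes of all were higher and 2365 lower. Slc25a12 (0.0040), Slc25a5 (0.17) and Slc38a2 (0.86) then changed sign, by the shift in scale. DESeq2 called 5 Slc25 genes and 1927 genes of all higher in IP, and the cause was not tested. With a limit of 50 counts the medians were 0.22 (Slc25) and 0.58 (other carriers). With 300 counts, 5 Slc25 genes were higher, 9 others higher and 13 lower, and the median of the others was -0.26, over fewer genes. Of the 34 named genes that passed, 8 missed the threshold with the same sign in at least 1 of 26 other settings, in 17 cases in all. Leaving out 1 column or pool gave 7 to 10 Slc25 genes higher and 4 to 5 lower (median 0.43 to 0.77), 25 to 32 others higher and 17 to 22 lower (median 0.27 to 0.60), and 2465 to 3136 genes of all higher and 3159 to 3599 lower. Slc24a2 ranged from -2.97 to 0.42, the last without the input shGpr151 pool. For e5UTR, 0 to 1 carriers in IP and 1 to 3 in input were past 2-fold without 1 column. At 1.5-fold there were 6 in IP and 5 in input, with at least 100 counts 1 in input, with the limit of 50 counts 2 in IP, and with the limit of 300 counts 1 in input. A replicate block over the 12 columns gave 10 Slc25 genes higher and 5 lower, with a median of 0.55, and 34 others higher and 24 lower, with a median of 0.46. Same-numbered columns correlated from -0.31 to 0.16 and 4 of 12 correlated best with their own number. These values show no pairing by number but cannot exclude it, because the columns of a group differ by little more than counting noise. Depth limits the input side, where a carrier with 0 counts may hold up to 1.40 CPM.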
